A study of Mus musculus with 3 samples.

Results

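Cells that held transcripts of type I collagen and *Pdgfra* together with *Agt*, *Stc1*, or both were taken from scRNA-Seq of whole mouse lung. A cell was a member, called a gated cell here, when it had at least 5 UMIs (unique molecular identifiers, each counting 1 captured transcript) of *Col1a1* and *Col1a2* together, at least 2 of *Pdgfra*, at least 3 of *Agt* and *Stc1* together, at most 2 of *Aspn*, at most 4 of *Myh11*, and 0 of *Ptprc*, *Cdh5* and *Epcam*. The gate found 199 cells among the 1517 cells with at least 5 *Col1a1* and *Col1a2* UMIs and the 7642 cells kept in all. Because the gate read the UMIs of these 10 genes, their levels are given as a description and were not tested, and the levels of *Cd248* and *P2ry14*, which had been put forward as markers of these cells from earlier results on the same libraries, are likewise a description. Those 2 genes stayed in the fits across all genes, but no p is given for them and the list counts leave out *P2ry14*.

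The libraries came from 3 WT C57BL/6 mice (numbers 2, 3, and 4) that breathed room air from day of life 1 to 14 and were taken at P14, in the alveolar stage of lung growth. There was 1 condition and no treated, mutant, or other-age group, so the comparisons below are between classes of cells within the same 3 lungs, with the mouse as the replicate. No allele, transgene, or sort set any class apart. The gated cells numbered 57, 62, and 80 in mice 2, 3, and 4 and held 629897, 680444, and 949813 UMIs.

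*Pdgfra* encodes the α receptor for PDGF, and in the alveolar lung PDGF-A made by the epithelium acts on mesenchymal cells that carry it, which lay down elastin at the tips of the growing septa. *Agt* encodes angiotensinogen, the precursor from which renin and then angiotensin-converting enzyme release angiotensin II. *Stc1* encodes stanniocalcin-1, a secreted glycoprotein first known from calcium control in fish that binds and inhibits the PAPP-A proteases, which free IGFs from their binding proteins.

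*Pdgfra* was found in every gated cell, *Agt* in nearly all, and *Stc1* in 159 (79.9%). The median gated cell had 17 *Pdgfra* UMIs (range 3–47), 10 *Agt* UMIs (0–32), and 2 *Stc1* UMIs (0–27). *Agt* and *Stc1* were found together in 157 of the 199 cells, *Agt* without *Stc1* in 40 and *Stc1* without *Agt* in 2. *Cd248*, which encodes endosialin, a stromal cell surface protein, had at least 1 UMI in 188 cells (94.5%), and *P2ry14*, which encodes the receptor for UDP-glucose, in 198 (99.5%). B cells, which should lack these genes, served as the background: among 1560 B cells the share with a UMI was 0.385% for *Pdgfra*, 0.449% for *Agt*, 0.0641% for *Stc1*, and 1.03% for *P2ry14*, and 0 B cells had a *Cd248* UMI. The B cells had at least 1 *Ptprc* UMI, at least 3 of *Cd79a* and *Cd79b* together, and 0 of *Col1a1*, *Col1a2*, *Cdh5*, and *Epcam*. Droplets with type I collagen RNA were thus left out, so these shares may understate the background. The median depth was 11257 UMIs per gated cell and 3989.5 per B cell.

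Summed over the gated cells of a mouse and expressed per 1000000 UMIs of that sum (CPM), *Pdgfra* stood at 1670, 1806, and 1502 CPM in mice 2, 3, and 4, whereas it stood at 321, 373, and 332 CPM in the 1318 other cells with at least 5 *Col1a1* and *Col1a2* UMIs. *Agt* stood at 1057, 1018, and 938 CPM against 341, 225, and 311 CPM. *Stc1* stood at 391, 320, and 405 CPM against 58.6, 58.1, and 69.8 CPM. The gated sums lay above the others in every mouse for the 3 genes, all of which the gate read. *Cd248* was measured at 576, 501, and 565 CPM (548 ± 40.6, SD, n = 3) against 148 ± 3.61 CPM, and *P2ry14* at 1361, 1314, and 1314 CPM (1329 ± 26.9) against 469 ± 99.9 CPM. The gated cells, which held 3.38% ± 0.621 of all UMIs of the kept cells, held 38.9% ± 2.39 of the *Pdgfra* UMIs of these lungs, 31.5% ± 5.69 of the *Agt* UMIs, and 37.1% ± 3.89 of the *Stc1* UMIs (n = 3). On GRCm38, *Pdgfra* (ENSMUSG00000029231) lies at chr5:75152292-75198215 on the plus strand, *Agt* (ENSMUSG00000031980) at chr8:124556534-124569706 on the minus strand, and *Stc1* (ENSMUSG00000014813) at chr14:69029238-69041804 on the plus strand. *Stc1*, *Pdgfra*, and *P2ry14* each overlap an annotated gene on the opposite strand, and whether the counting used strand is not given in the sources used here.

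**Figure D1:**
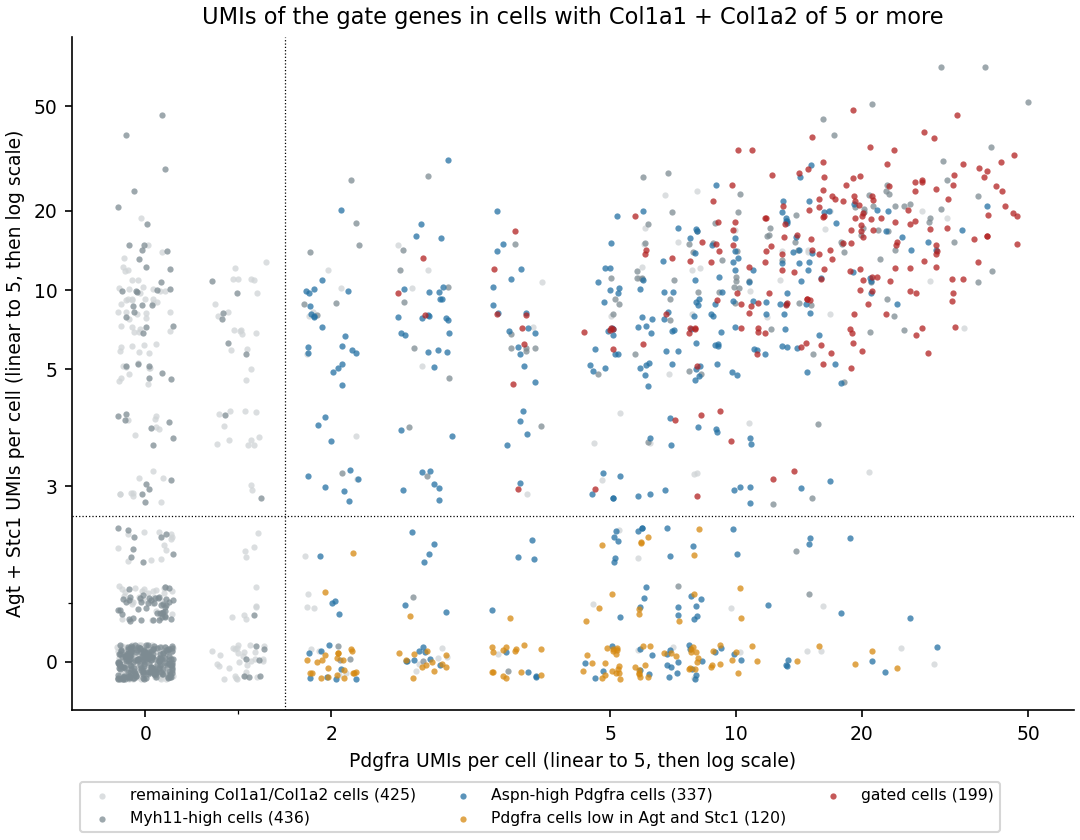
Each point is 1 of the 1517 cells with at least 5 *Col1a1* and *Col1a2* UMIs, with its *Pdgfra* UMIs on the horizontal axis and its *Agt* and *Stc1* UMIs together on the vertical axis (both linear to 5 and logarithmic above, points jittered), colored by class; dotted lines mark the limits of the gate. The 199 gated cells lie in the upper right, the 120 *Pdgfra* cells low in *Agt* and *Stc1* lie below the line, and cells high in *Aspn* or *Myh11* share the upper right with the gated cells because those limits are not drawn.

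The gate cut through a continuous range on some axes and a sparse one on others. Only 9 gated cells had 3 or 4 UMIs of *Agt* and *Stc1* (median *Pdgfra* 8), and 190 had 5 or more. Outside that limit, with all other limits met, 19 cells had 1 or 2 such UMIs (median *Pdgfra* 6) and 101 cells had 0 (median *Pdgfra* 5). The limit on *Pdgfra* also fell in a sparse range, with 11 gated cells at 2–4 UMIs and 4 cells outside at 0 or 1. The *Aspn* limit did not: 43 gated cells had 1 or 2 *Aspn* UMIs, 32 cells were left out at 3–5 (median *Pdgfra* 13, median *Agt* and *Stc1* together 11.5), and 210 were left out at 6 or more (median *Pdgfra* 6, median *Agt* and *Stc1* together 7). The *Myh11* limit left out 67 cells that met every other limit, and these had a median of 18 *Pdgfra*, 15 *Agt* and *Stc1*, and 0 *Aspn* UMIs at 13235 UMIs per cell. The gated cells as counted are therefore the part of these cells that had at most 4 *Myh11* UMIs.

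The gated cells made up 10.8% of the cells with at least 5 *Col1a1* and *Col1a2* UMIs in mouse 2 (exact 95% CI 8.31–13.8%), 14.6% in mouse 3 (11.4–18.4%), and 14.1% in mouse 4 (11.3–17.2%), with a mean of 13.2% ± 2.05 (SD, n = 3). The 3 intervals overlap. Of all kept cells, they made up 2.39%, 2.38%, and 3.01%. Without the *Myh11* limit the mean share was 17.6% ± 2.22.

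Depth, gene number, and mitochondrial share were close in the gated and other cells. The median gated cell had 11257 UMIs, 3925 genes, and 5.87% mitochondrial UMIs, and the median other cell had 10641 UMIs, 3703 genes, and 6.58% mitochondrial UMIs. A doublet score marked 1 of the 199 gated cells and 59 of the 1318 others. No barcode of a gated cell was shared between libraries (5, 2, and 5 barcodes were shared by pairs of libraries in all). A single gated cell of mouse 4 stood apart, with 873 *Col1a1* and *Col1a2* UMIs where the median gated cell had 45. It had 4 *Pdgfra* UMIs, 0 *Agt* UMIs, and 69 of the 85 *Dcn* UMIs of all gated cells. Another cell held 104 of the 132 *Npnt* UMIs, so the higher *Dcn* and *Npnt* levels of the gated cells in mouse 4 rest on single cells.

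The next comparison asked what else distinguished the gated cells from the other cells with type I collagen transcripts. Of 11482 genes tested, 2674 differed (23.3%), with 813 higher in the gated cells (7.08%) and 1861 lower (16.2%), by the quasi-likelihood test of edgeR at a Benjamini-Hochberg adjusted p of 0.05. Among cells of matched depth, 501 of 10180 genes tested were higher and 1083 lower. Without mouse 2, 513 were higher (26.3% of the calls), and without mouse 4, 481 (25.1%). The limits on *Myh11*, *Ptprc*, *Cdh5*, and *Epcam* held for the gated cells only, and the others included 436 cells with at least 5 *Myh11* UMIs and 0 of the other 3 genes. The p-values tell how steady a difference was over 3 mice; since the cells were chosen on RNA of the same cells, they are no evidence for a separate cell type.

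The largest fold increases among genes outside the gate that reached at least 50 CPM in the gated cells included an enzyme, a ligand, and transcription factors, and also 3 genes of dividing cells. *Ptges*, which encodes the inducible prostaglandin E synthase, stood at 187, 92.6, and 124 CPM in the gated cells of mice 2, 3, and 4 and at 28, 24.5, and 23.1 CPM in the others (log2 fold change 2.35, SE 0.21, adjusted p = 7.74e-06). *Bmp2*, a BMP ligand, stood at 176, 125, and 124 CPM against 30.3, 30.4, and 39.5 CPM (2.01, SE 0.16, adjusted p = 3.03e-06). *Lef1*, a transcription factor that acts with β-catenin in Wnt signaling, stood at 105, 67.6, and 67.4 CPM against 18.2, 16.9, and 20.6 CPM (2.02, SE 0.18, adjusted p = 9.80e-06). In each of these genes mouse 2 was highest among the gated sums, and the groups did not overlap. *Foxq1*, a forkhead transcription factor, was more even, at 187, 156, and 156 CPM against 44.2 ± 2.75 CPM (1.85, SE 0.11, adjusted p = 4.82e-07). *Havcr1*, which encodes a phosphatidylserine receptor best known from injured kidney tubules, stood at 105, 69.1, and 52.6 CPM against 13.2 ± 1.93 CPM (2.41, SE 0.23, adjusted p = 1.53e-05).

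The other leading genes did not overlap between the groups either. All of these genes were named for large called differences of the same direction in all 3 mice, so the lack of overlap adds no support. *Col24a1*, a fibrillar collagen chain, reached 67.9 ± 5.35 CPM against 13.8 ± 1.61 CPM. *Fras1*, a basement membrane protein of the Fraser complex, reached 92.1 ± 17.4 CPM against 21.6 ± 3.18 CPM, and *Dchs2*, a large protocadherin, reached 71.7 ± 6.42 CPM against 18.7 ± 1.45 CPM. *Ubash3b*, a phosphatase that restrains tyrosine kinase signaling, *Nrxn3*, a neurexin, *Jph1*, a junctophilin, and *Scube1*, a secreted and membrane-bound glycoprotein, had log2 fold changes of 2.06, 1.91, 2.00, and 1.94. These genes were spread over the gated cells: *Lef1* UMIs came from 96 cells, *Bmp2* UMIs from 133, and *Foxq1* UMIs from 146, and no cell held more than 5.73% of the UMIs of any of the 3. *Ube2c*, which had the largest fold increase, *Mki67*, and *Top2a* are described with the dividing cells below.

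Some Wnt, hedgehog, and FGF signaling genes were higher and others lower. In the Wnt list 9 of 29 tested genes were higher and 10 lower, with a median log2 fold change of -0.14 (all genes tested: 7.08% higher, 16.2% lower, median -0.00). The higher ones included the nuclear factors *Lef1* and *Tcf7* (82 ± 8.96 CPM against 24.1 ± 2.33 CPM, 1.70), the feedback genes *Axin2* (113 ± 25.2 CPM against 57.9 CPM, 0.88) and *Notum* (26.3 CPM against 10.5 CPM, 1.23), and the ligands *Wnt11* (1.04) and *Wnt5a* (0.38). The *Notum* call was lost without mouse 2 (adjusted p = 0.11 by edgeR) or mouse 3 (0.0552), and the *Wnt5a* call without mouse 2 (0.11) or mouse 3 (0.134). At matched depth *Wnt5a* differed by -0.01, and its call was lost with marked doublets removed (adjusted p = 0.053 by edgeR) and against other cells with 0 *Ptprc*, *Cdh5*, and *Epcam* UMIs (0.149). The lower ones included the ligand *Wnt2* and the receptors *Fzd4* and *Fzd7*, of which *Fzd4* lost its call at matched depth (adjusted p = 0.0553 by edgeR). *Ptch1*, the hedgehog receptor and a target of the pathway, stood at 321, 265, and 296 CPM against 129, 128, and 128 CPM (1.13, SE 0.09, adjusted p = 2.94e-06 by edgeR). *Gli3* was higher (0.88; at matched depth 0.51, adjusted p = 0.0587 by edgeR), *Gli1* was not called (25.1 CPM against 18.9 CPM, adjusted p = 0.225 by edgeR), and *Hhip*, a hedgehog-binding inhibitor, was lower (-1.74), so the hedgehog list held 2 higher and 3 lower genes of 11. *Spry1*, a feedback inhibitor of FGF receptor signaling, stood at 589, 542, and 491 CPM against 242 ± 21.7 CPM (1.10).

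Mesenchymal transcription factors were the list with the most higher genes, 15 of 27 tested, with 7 lower and a median log2 fold change of 0.46. Of all genes tested, 7.08% were higher and 16.2% lower. *Tbx4*, a T-box factor of lung mesenchyme, stood at 708, 714, and 614 CPM against 282, 250, and 277 CPM (1.27, SE 0.09, adjusted p = 1.42e-06 by edgeR). *Foxf2*, a forkhead factor that answers hedgehog signaling, stood at 418, 420, and 342 CPM against 148, 139, and 160 CPM (1.33, SE 0.10, adjusted p = 1.86e-06 by edgeR). *Runx1* (1.42), *Tbx5* (1.03), *Tbx2* (0.74), *Foxf1* (0.48), and *Zeb2* (0.46) were also higher, of which *Foxf1* lost its call without mouse 2 (adjusted p = 0.163 by edgeR) and *Zeb2* without mouse 3 (0.0698) and at matched depth (0.121). *Tcf21*, a factor of lipid-storing fibroblasts, was lower at 14.3, 10.3, and 27.4 CPM against 166 ± 42.5 CPM (-3.23), as was *Meox2* (4.98 CPM against 51.3 CPM, -3.22).

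**Figure D2:**
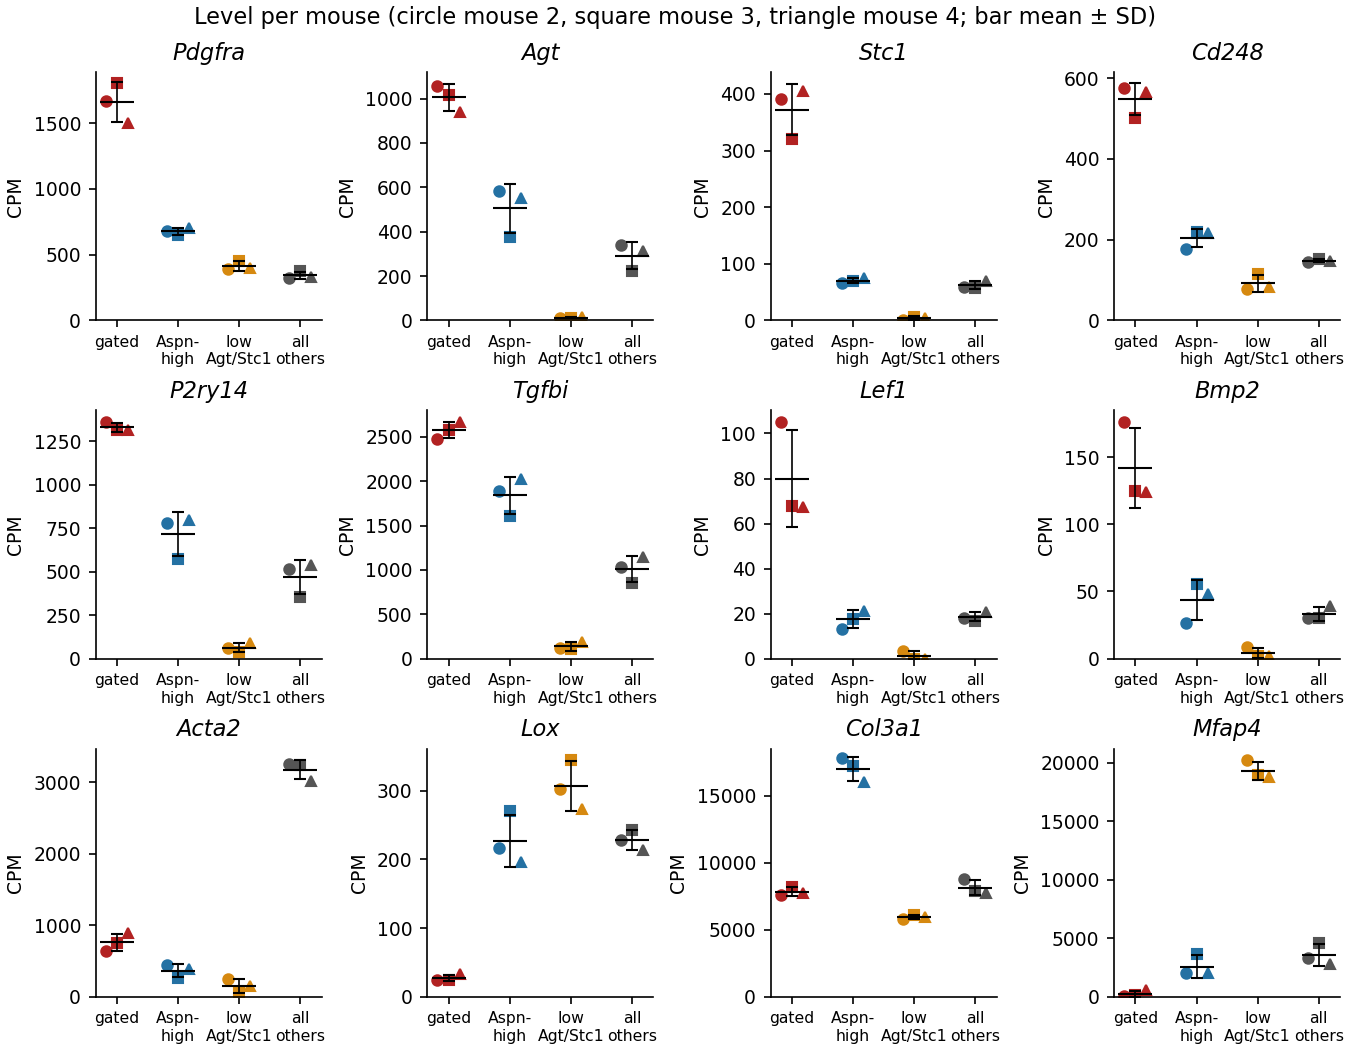
The CPM of 12 genes is plotted for the gated cells, the *Aspn*-high *Pdgfra* cells, the *Pdgfra* cells low in *Agt* and *Stc1*, and all other cells with at least 5 *Col1a1* and *Col1a2* UMIs, with 1 point per mouse (circle mouse 2, square mouse 3, triangle mouse 4) and bars for mean ± SD. *Lef1* and *Bmp2* sit highest in the gated cells of all 3 mice, *Lox* sits lowest there at 23.8–32.6 CPM, and *Mfap4* sits at 105, 135, and 540 CPM in the gated cells on an axis that reaches past 20212 CPM.

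Genes of other mesenchymal cells were lower in the gated cells, beside 16.2% lower and 7.08% higher among all genes tested. All 14 tested genes of the *Col13a1*-type alveolar fibroblast list were lower (median -3.67), among them *Mfap4*, a microfibril-associated protein (105, 135, and 540 CPM against 3577 ± 925 CPM), and *Inmt* (11.8 CPM against 247 CPM). Of the 13 tested genes of the *Col14a1*-type adventitial list, 11 were lower (median -3.36). The 2 exceptions were *Cd34*, a sialomucin of stromal and endothelial cells, at 800, 586, and 732 CPM against 232 ± 33.4 CPM (1.55), and *Pdgfrl* (0.88). Of 12 tested smooth muscle contractile genes 11 were lower, including *Acta2* (646, 750, and 890 CPM against 3261, 3242, and 3024 CPM, -2.11) and *Tagln* (-1.45). *Mylk*, which encodes myosin light chain kinase, was not called (1088 CPM against 1026 CPM, adjusted p = 0.854 by edgeR). The limit on *Myh11* held for the gated cells only, and its part in these calls was not tested. Against the *Aspn*-high *Pdgfra* cells described below, which met that limit, 2 of the 12 were higher and 1 lower. The pericyte list had 7 lower genes of 10 tested and 0 higher, with *Notch3* at 11.4 CPM against 211 CPM. *Pdgfrb* was not called in this comparison (700 ± 112 CPM against 512 ± 121 CPM, adjusted p = 0.126 by edgeR), and mouse 2 of the other cells overlapped the gated sums. With the mouse as a block *Pdgfrb* was called higher (0.40, adjusted p = 0.00146 by edgeR), as it was with the stricter cell filter (0.49, 0.035).

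Some genes of the other cells were absent from the gated cells at this depth. *Itih4*, *Parm1*, *Prss23*, *Sh3bgr*, *Cytl1*, *Ncam1*, *Pcp4l1*, and *Grp* had 0 UMIs among the 2260154 UMIs of the gated cells, which allows a level of up to 1.33 CPM from counting error alone. They were at least 82.2-, 79.8-, 71.4-, 65.1-, 63.5-, 52.4-, 48.5-, and 48-fold lower than in the other cells. The bound for *Cytl1* leans on mouse 3, since its level in the others was 53.1, 163, and 47.2 CPM in mice 2, 3, and 4. *Actc1*, which encodes cardiac α-actin, had 3 UMIs in the gated cells against 512 ± 72.6 CPM in the others, and the transcription factor gene *Ebf1* had 1 UMI against 176 ± 19.9 CPM.

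The alveolar myofibroblast list was split. Of its 11 tested genes, 4 were higher and 4 lower (median 0.18), where 7.08% of all genes tested were higher and 16.2% lower. *Tgfbi*, which encodes a TGF-β–induced matrix protein, stood at 2480, 2584, and 2667 CPM against 1038, 848, and 1145 CPM (1.29, SE 0.11, adjusted p = 4.30e-06 by edgeR) and had UMIs in all 199 gated cells. *Htra1*, a secreted serine protease, was higher (612 ± 69.7 CPM against 266 CPM, 1.15), as were *Nnat* (1.25) and *Wnt5a*. *Hhip*, *Cdh4* (17.8 ± 4.27 CPM against 78.5 ± 20 CPM, -2.24), *Lgr6* (-1.63), and *Enpp2* (-0.81) were lower, and *Mustn1*, *Fgf18*, and *Loxl2* were not called. *Loxl2* was called lower with the mouse as a block (-0.38, adjusted p = 0.0254 by edgeR) and without mouse 3 (-0.62, 0.0228), at matched depth (-0.75, 0.0011), with marked doublets removed (-0.47, 0.0319), and against other cells with 0 *Ptprc*, *Cdh5*, and *Epcam* UMIs (-0.49, 0.0355). With other cells of *Pdgfra* and *Agt* or *Stc1* left out, *Fgf18* (1.20, adjusted p = 0.00114 by edgeR) and *Mustn1* (0.52, 0.0238) were called higher.

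Of the markers of nonmesenchymal cells, 9 of 10 tested epithelial, 7 of 8 endothelial, and 4 of 7 immune genes were lower in the gated cells than in the others, which had no limit on *Ptprc*, *Cdh5*, or *Epcam*, and 0 were higher. The 10 epithelial genes summed to 278 ± 113 CPM in the gated cells against 3799 CPM in the others, and the most abundant was *Sftpc*, a surfactant protein gene of AT2 cells, at 221, 79.4, and 236 CPM. *Sftpc* UMIs were spread thinly over 158 gated cells, with at most 8 in a cell, and *Hopx* had 0 UMIs. The 8 endothelial genes summed to 144 ± 31.5 CPM against 524 CPM, of which *Ramp2* gave 130 CPM, and *Emcn* had 0 UMIs. The 9 immune genes summed to 27.2 ± 20 CPM against 207 CPM, led by *Cd74* at 9.08 CPM. In the others, 12 cells held 93.3% of the *Sftpc* UMIs. Against other cells that also had 0 UMIs of the 3 genes, the calls for *Sftpc* (-0.26, adjusted p = 0.677 by edgeR) and *Cd74* (-0.37, adjusted p = 0.603) were lost, and *Ramp2* was higher in the gated cells (1.68, adjusted p = 9.81e-06). With marked doublets removed, the calls for *Sftpc* (adjusted p = 0.122 by edgeR) and *Cd74* (0.119) were also lost and *Ramp2* was higher (0.88, 0.0448), and at matched depth *Sftpc* was not called (0.128) and *Ramp2* was higher (1.51, 4.68e-06). In the *Aspn*-high *Pdgfra* cells described below, which met the same limits, the epithelial, endothelial, and immune genes summed to 306 ± 116, 79.1 ± 6.2, and 29.2 ± 14.6 CPM. Of 18 tested genes that respond to tissue dissociation, 16 were lower and 0 higher, where 16.2% of all genes tested were lower. Their summed level was 1374 ± 232 CPM in the gated cells against 2501 ± 308 CPM in the others. The part of these differences in the results above was not tested.

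**Figure D3:**
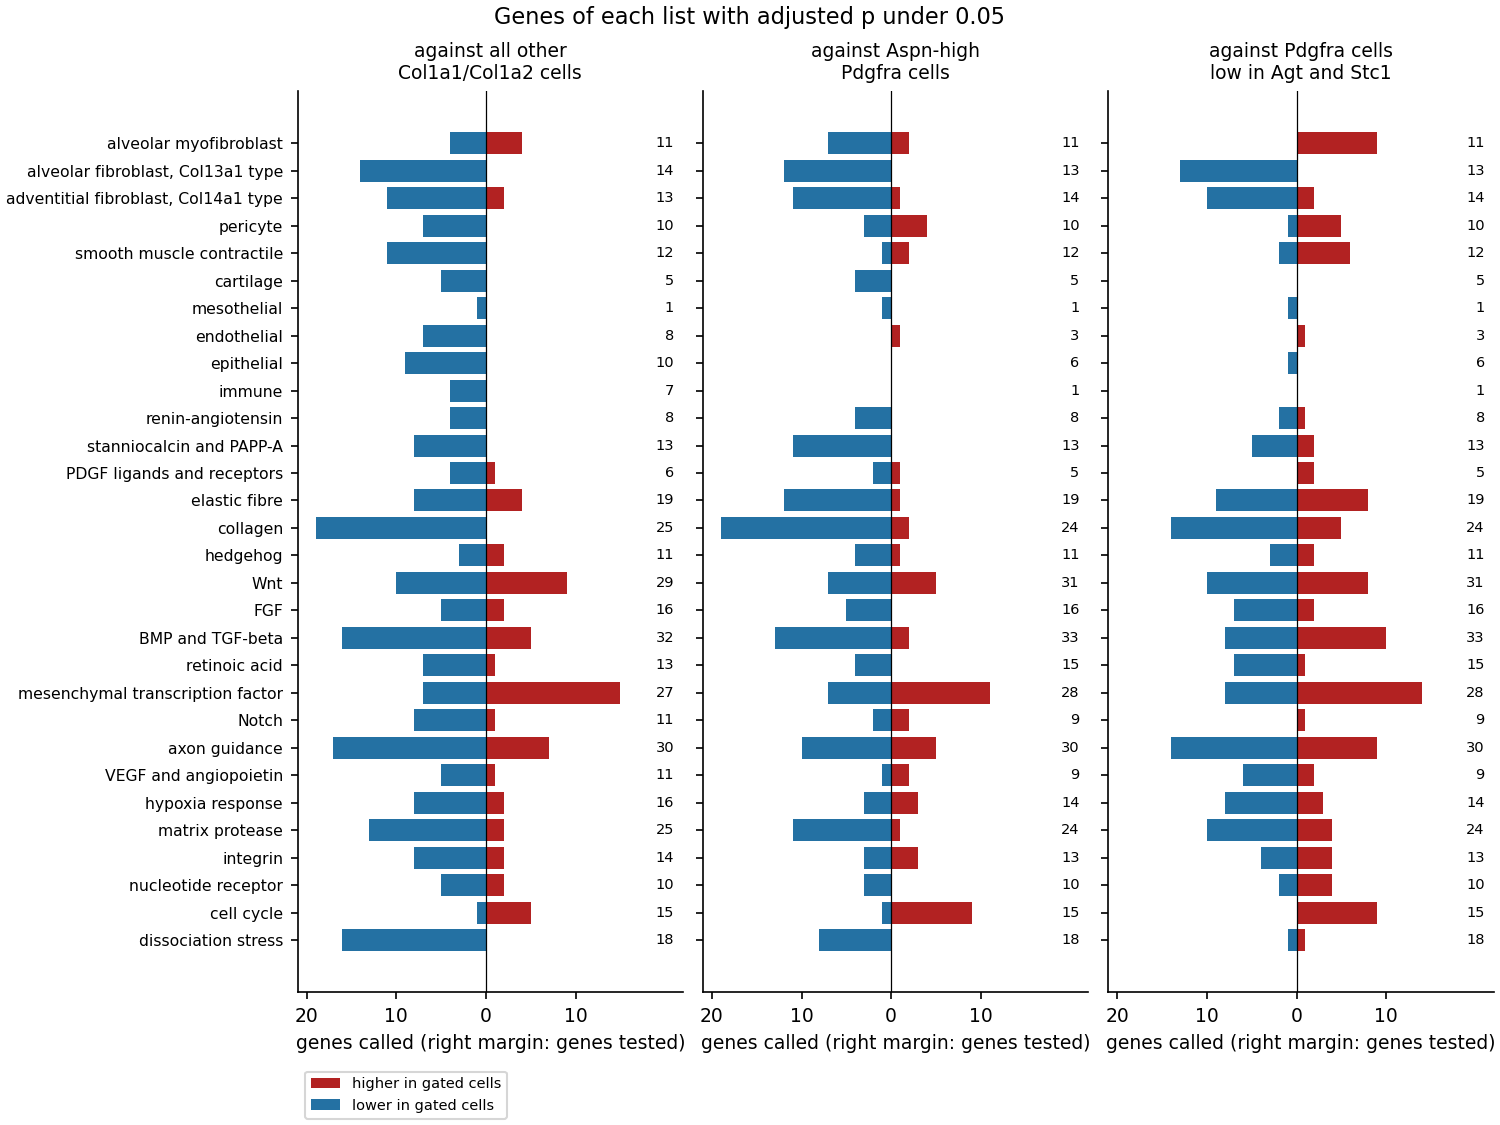
For each gene list, bars give the number of genes higher (right, red) and lower (left, blue) in the gated cells at an adjusted p under 0.05, with the number of genes tested at the right margin, in 3 comparisons. The *Col13a1*-type list has no red bar in any of the 3, the mesenchymal transcription factor list has the longest red bar in each, and the alveolar myofibroblast list changes from 4 higher and 4 lower to 2 higher and 7 lower and then to 9 higher and 0 lower.

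Of the 15 genes of the renin-angiotensin list, which hold the partners of angiotensinogen, 8 were tested, 0 were higher, and 4 were lower (median -2.09), where 7.08% of all genes were higher and 16.2% lower. *Ace*, which encodes the angiotensin-converting enzyme, stood at 1.59, 7.35, and 7.37 CPM against 34.5, 49.4, and 68.8 CPM (-3.20, SE 0.43, adjusted p = 0.000199 by edgeR). *Enpep*, the aminopeptidase that trims angiotensin II, stood at 12.7, 11.8, and 46.3 CPM against 127 ± 23.1 CPM (-2.34, SE 0.32). The angiotensin II receptor gene *Agtr1a* had 1 UMI in all gated cells together against 29.6, 14.3, and 15.2 CPM in the others. The groups did not overlap for any of these genes. *Ren1*, *Agtr1b*, *Agtr2*, *Mas1*, *Ctsg*, and *Cma1* had 0 UMIs in the gated cells and were not tested. *Atp6ap2*, the prorenin receptor, was not called (86.9 ± 10 CPM against 87.1 ± 5.18 CPM, adjusted p = 0.728 by edgeR). Against the *Aspn*-high *Pdgfra* cells described below, 4 of 8 were lower, with *Ace* and *Enpep*, and 0 higher, and *Agtr1a* was not called. Against the *Pdgfra* cells low in *Agt* and *Stc1*, also described below, 2 were lower and 1 higher, and *Ace* and *Agtr1a* were not called. *Agtr1a* had 0 UMIs in those low cells, and *Ren1*, *Mas1*, *Ctsg*, and *Cma1* had 0 UMIs in both classes.

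The genes around stanniocalcin-1 were lower or not called. Of 13 tested genes of the stanniocalcin, PAPP-A, and IGF list, 8 were lower and 0 higher (median -0.72), where 16.2% of all genes tested were lower and 7.08% higher. *Stc2*, the paralog of *Stc1*, was near the floor of detection at 0.702 CPM against 9.98 CPM, and its call was lost without mouse 2 (adjusted p = 0.0693 by edgeR) or mouse 3 (0.0644). *Pappa* (-0.32, adjusted p = 0.45 by edgeR) and *Pappa2* (-0.68, adjusted p = 0.0672 by edgeR), the proteases that stanniocalcins inhibit, were not called. With the mouse as a block *Pappa2* was called lower (adjusted p = 0.00612 by edgeR), as it was at matched depth (-1.18, 0.0143), with marked doublets removed (-0.80, 0.0178), against other cells with 0 *Ptprc*, *Cdh5*, and *Epcam* UMIs (-0.82, 0.0162), and without mouse 4 (-1.07, 0.0378). *Igf1*, which encodes insulin-like growth factor 1, stood at 216, 194, and 182 CPM against 279, 246, and 265 CPM (-0.48, SE 0.10, adjusted p = 0.00313 by edgeR), and its receptor *Igf1r* was lower as well (-0.72). The *Igf1* difference was -0.15 (adjusted p = 0.457 by edgeR) once other cells with *Pdgfra* and *Agt* or *Stc1* were left out. Among the IGF-binding proteins, *Igfbp4*, a PAPP-A substrate, was lower (85.7 CPM against 479 CPM, -2.46), as were *Igfbp5* (-1.45) and *Igfbp7* (-1.57). In the PDGF list the ligand *Pdgfa* stood at 20.6, 22, and 23.2 CPM against 85.1, 86.7, and 86 CPM (-2.02, SE 0.14, adjusted p = 1.02e-06 by edgeR), and *Pdgfb*, *Pdgfc*, and *Pdgfd* were lower too, the call for *Pdgfc* being lost without mouse 2 (adjusted p = 0.0936 by edgeR) or mouse 3 (0.133) and with the gate without the *Myh11* limit (0.0667).

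The matrix profile was uneven (of all genes tested, 7.08% were higher and 16.2% lower). *Eln*, which encodes elastin, stood at 27422, 33246, and 23068 CPM in the gated cells and at 28967 ± 3085 CPM in the others, overlapped between the groups, and was not called (-0.11, adjusted p = 0.634 by edgeR). Of the 19 tested elastic fibre genes, 4 were higher (*Ltbp2*, 1.27; *Fbn2*, 1.01; *Fbln1*, 0.99; and *Mfap2*, 0.54) and 8 lower. *Lox*, which encodes the lysyl oxidase that crosslinks elastin and collagen, stood at 23.8, 25, and 32.6 CPM against 228, 243, and 213 CPM (-3.09, SE 0.14, adjusted p = 9.57e-08 by edgeR). Of 25 tested genes of the collagen list, which held neither the type I genes nor *Col24a1*, 19 were lower and 0 higher (median -1.99), and *Col24a1* was higher (2.24). *Col3a1*, the type III collagen gene, was not called (7855 ± 311 CPM against 8150 CPM, adjusted p = 0.445 by edgeR), nor was *Col4a1* (1410 ± 11.3 CPM against 1316 ± 114 CPM). The type I collagen genes that the gate itself read stood at 1853 ± 365 CPM (*Col1a1*) and 2695 ± 239 CPM (*Col1a2*), against 4652 ± 662 CPM and 4495 ± 475 CPM.

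The next comparison was with the *Aspn*-high *Pdgfra* cells. These met the limits on *Pdgfra*, *Myh11*, *Ptprc*, *Cdh5*, and *Epcam* but had at least 3 UMIs of *Aspn*, the gene of the small proteoglycan asporin. They numbered 126, 88, and 123 in mice 2, 3, and 4. They held *Agt* at 505 ± 111 CPM and *Stc1* at 69.8 ± 4.42 CPM without a limit on either gene, and *Pdgfra* at 678 ± 27.4 CPM. Of 10922 genes tested, 469 were higher in the gated cells (4.29%) and 926 lower (8.48%) by edgeR, with a median log2 fold change of -0.01 over all genes.

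Against these cells, some signaling, contractile, and mural genes were higher in the gated cells. The Wnt list held 5 higher and 7 lower genes of 31 tested (median -0.62), and the BMP and TGF-β list 2 higher and 13 lower of 33 (median -0.31). *Gap43*, which encodes a growth-cone protein, stood at 111, 97, and 91.6 CPM against 4.91, 1.85, and 7.34 CPM (4.22, SE 0.29, adjusted p = 1.31e-09 by edgeR). Its UMIs came from 72 of the 199 gated cells. *Lef1* (2.09, SE 0.24), *Bmp2* (1.63, SE 0.22), *Tcf7* (1.59), *Scube1* (2.20), and *Ccnd1*, the cyclin D1 gene (132 ± 31.6 CPM against 27.7 ± 9.84 CPM, 2.20), were higher without overlap of the groups. *Acta2*, the smooth muscle actin gene, stood at 646, 750, and 890 CPM against 443, 261, and 388 CPM (0.97, SE 0.24, adjusted p = 0.00627 by edgeR), and *Mylk* was higher too (0.63), while *Lmod1* was lower and the other 9 contractile genes were not called. The *Acta2* call was lost with DESeq2 (adjusted p = 0.147), at matched depth (0.49, adjusted p = 0.316 by edgeR), and without mouse 4 (0.87, adjusted p = 0.0523 by edgeR). That for *Lmod1* was lost without mouse 2 (adjusted p = 0.184 by edgeR) or mouse 4 (0.0638) and with the gate without the *Myh11* limit (-0.67, 0.0751). *Pdgfrb*, the mural cell PDGF receptor, stood at 829, 644, and 627 CPM against 409, 331, and 392 CPM (0.80, SE 0.13, adjusted p = 0.000116 by edgeR), and 4 of the 10 tested pericyte genes were higher and 3 lower. *Cd34* stood at 800, 586, and 732 CPM against 287, 366, and 301 CPM (1.06, SE 0.14, adjusted p = 7.91e-06 by edgeR).

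Matrix and IGF genes were lower in the gated cells than in the *Aspn*-high cells, beside 8.48% lower and 4.29% higher among all genes tested. Of 24 tested collagen genes, 19 were lower and 2 higher (*Col4a1*, 0.57, and *Col4a2*, 0.62, basement membrane chains), with a summed level of 13314 ± 520 CPM against 25276 ± 1360 CPM. *Col3a1* stood at 7635, 8211, and 7719 CPM against 17816, 17202, and 16011 CPM (-1.20, SE 0.06, adjusted p = 4.97e-11 by edgeR). In the elastic fibre list, 12 of 19 were lower and 1 higher: *Eln* stood below the *Aspn*-high cells in each mouse (27422 against 42804, 33246 against 34048, and 23068 against 36983 CPM, -0.53, SE 0.10, adjusted p = 0.000385 by edgeR), *Lox* differed by -3.11 (SE 0.18), and *Ltbp2* was higher (0.73, SE 0.17), a call lost at matched depth (0.51, adjusted p = 0.154 by edgeR). Of the 13 genes around stanniocalcin-1, 11 were lower, including *Igf1* (460, 536, and 452 CPM in the *Aspn*-high cells, -1.38, SE 0.15, adjusted p = 8.54e-07 by edgeR), *Igfbp5* (-1.76), and *Pappa2* (39.7 ± 15.9 CPM against 144 ± 38 CPM, -1.89). Among leading genes, *Col15a1* stood at 3.18, 5.88, and 11.6 CPM against 277, 466, and 205 CPM (-5.45, SE 0.45). *Igfbp6* and *Cilp* had 1 UMI each in the gated cells against 58.7 ± 35.1 and 52.8 ± 9.83 CPM. *H19* was called as lower (adjusted p = 0.0218 by edgeR), but its level in the *Aspn*-high cells was 276 CPM in mouse 3 and 2.81 and 5.87 CPM in mice 2 and 4, which overlap the gated sums, and the call was lost without mouse 3 (adjusted p = 0.08) and at matched depth (0.0619).

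Of the myofibroblast list, 2 genes were higher in the gated cells and 7 lower among 11 tested (median -0.62), beside 4.29% higher and 8.48% lower among all genes tested. *Tgfbi* was higher by 0.40 (SE 0.12, adjusted p = 0.0365 by edgeR; 1842 ± 210 CPM in the *Aspn*-high cells) and *Htra1* by 0.95, while *Wnt5a* (-0.62) and *Fgf18* (-0.55), which were higher or not called against all others, were lower here, together with *Hhip* (-1.97), *Cdh4* (-3.12), and *Loxl2* (-0.93). The *Tgfbi* call was lost without mouse 2 (adjusted p = 0.124 by edgeR) or mouse 3 (0.242) and at matched depth (0.21, adjusted p = 0.693), that for *Wnt5a* without mouse 2 (0.0751), and that for *Fgf18* without mouse 2 (0.33) or mouse 4 (0.0956). The *Tgfbi* call was also lost with the stricter cell filter (adjusted p = 0.0932 by edgeR) and with marked doublets removed (0.081). The *Fgf18* call was also lost with DESeq2 (adjusted p = 0.202) and, by edgeR, with the stricter cell filter (0.0849), without TMM (0.0825), with the stricter gate (0.0503), and with dividing cells left out (0.0537). Among transcription factors, higher levels were found for *Tbx4* at 0.76, *Tbx5* at 0.88, *Foxf2* at 0.78, *Foxf1* at 0.93, *Sox11* at 1.60, and *Runx1* at 0.83. The whole list had 11 higher and 7 lower of 28. *Ptch1* was higher by 0.96 (SE 0.11) against 124, 145, and 156 CPM. The dissociation list had 8 lower genes of 18 and 0 higher, and its part in these differences was not tested.

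**Figure D4:**
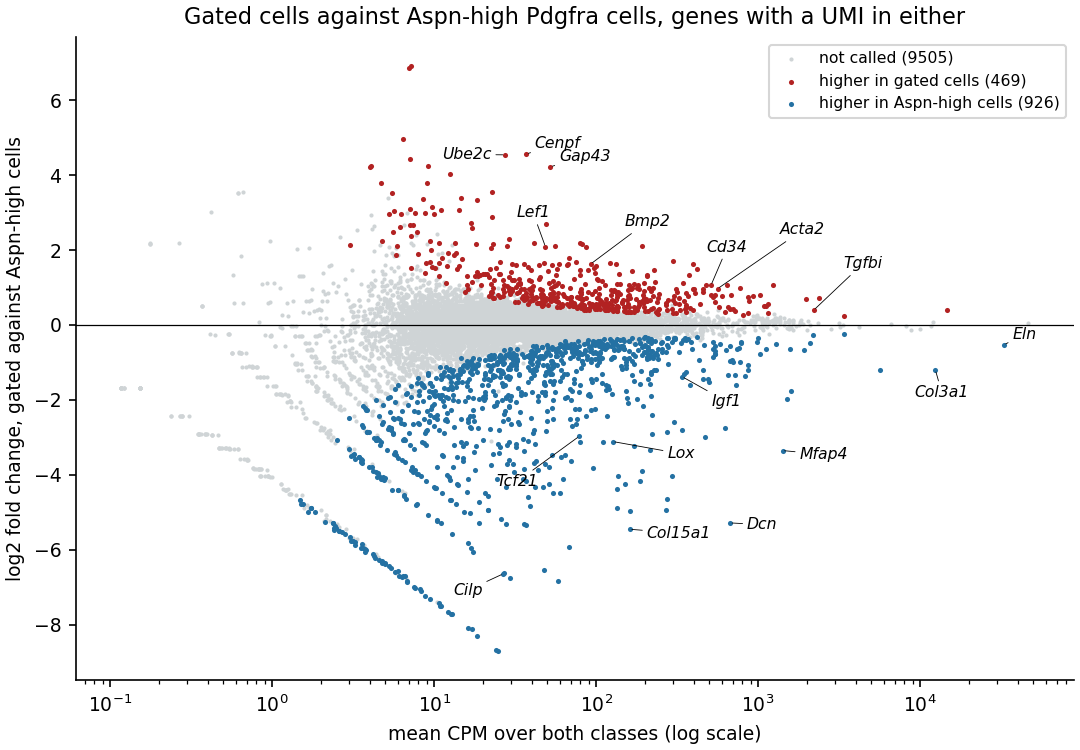
Each point is a gene with at least 1 UMI in either class, with its mean CPM over the gated and *Aspn*-high cells on the horizontal axis (log scale) and its log2 fold change on the vertical axis, and the 469 genes called higher in the gated cells are red and the 926 called lower are blue. The lower calls reach larger fold changes than the higher ones, and the straight line of points at the lower left holds genes with 0 UMIs in the gated cells, whose fitted values depend on the prior count of the fit.

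*Pdgfra* cells low in *Agt* and *Stc1*, which met every limit of the gate but had at most 2 UMIs of *Agt* and *Stc1*, were farther from the gated cells. They numbered 41, 46, and 33 and were deeper (median depth 13784.5 UMIs). Of 10922 genes, 1271 were higher in the gated cells (11.6%) and 1758 lower (16.1%) by edgeR. This split depends on the scaling: without TMM normalization the median of all genes moved by 0.17 on the log2 scale, and 1956 genes were called higher, 59.1% of the calls in place of 42%.

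The *Pdgfra* cells low in *Agt* and *Stc1* carried the *Col13a1*-type profile that the gated cells lacked. All 13 tested genes of that list were lower in the gated cells (median -6.35), with a summed level of 875 ± 464 CPM against 38685 ± 1253 CPM. *Mfap4* stood at 105, 135, and 540 CPM against 20212, 18994, and 18770 CPM (-6.35, adjusted p = 4.56e-11 by edgeR), and *Tcf21* at 14.3, 10.3, and 27.4 CPM against 830, 803, and 764 CPM (-5.61). *Wnt2*, an alveolar fibroblast ligand, and *Vipr2*, a receptor for vasoactive intestinal peptide, had 0 UMIs in the gated cells and were at least 113- and 49.7-fold lower, and so were *Ablim3* (at least 151-fold), *Shisa2* (113-fold), *Ccl11* (45.5-fold), and *Prkg2* (41.8-fold). *Ccl11* varied between mice, at 97.6, 55.9, and 18.2 CPM in the low cells of mice 2, 3, and 4.

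In the other direction, 9 of the 11 tested myofibroblast genes were higher in the gated cells and 0 lower (median 2.69). *Tgfbi* differed by 4.08 (SE 0.15, adjusted p = 4.37e-14 by edgeR), from 137 ± 47.2 CPM, and *Mustn1* by 3.86 (1113 ± 195 CPM against 70.2 ± 32.7 CPM). *Plxna4*, a semaphorin receptor, stood at 243, 250, and 297 CPM against 0, 3.29, and 6.82 CPM (6.19, SE 0.34, adjusted p = 3.14e-12 by edgeR). *Trim67*, a ubiquitin ligase known from neurons, stood at 237, 240, and 239 CPM against 6.97, 0, and 2.27 CPM (6.04, SE 0.33, adjusted p = 3.78e-12 by edgeR). Both were found widely among the gated cells, with *Plxna4* UMIs in 173 and *Trim67* UMIs in 172 of 199. *Ramp1*, which encodes a subunit of the CGRP receptor, stood at 120 ± 17.4 CPM against 3 UMIs in all, and *Gap43*, *Ube2c*, and *Lef1* at 99.9 ± 10.1, 52.6 ± 15.7, and 79.9 ± 21.5 CPM against 1, 1, and 2 UMIs. *Eln* was higher in the gated cells (0.84, SE 0.10; 13768 ± 343 CPM in the low cells), as were *Acta2* (2.12), *Pdgfrb* (2.57), and *Spry1* (2.04), while *Lox* was lower (-3.65, SE 0.18). *Igf1*, lower against the *Aspn*-high cells, was not called here (232 ± 49.4 CPM in the low cells, adjusted p = 0.0597 by edgeR) but was called lower at matched depth (-0.86, adjusted p = 0.00152 by edgeR), without mouse 4 (-0.54, 0.0234), with dividing cells left out (-0.51, 0.0316), and without a filter on low counts (-0.42, 0.0123), and *Enpep* was again lower (-4.73).

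*Col13a1* cells were taken as those with at least 2 *Col13a1* UMIs and at most 1 *Pdgfra* UMI. They were few, 3, 7, and 13 in the 3 mice, so that only mouse 4 gave a sum of at least 10 cells. Counts of genes called against this sum are a description and no test over mice, since its own spread between mice was not measured. In the fit the sum was assumed to vary like the other classes. Against it 378 of 10922 genes were higher in the gated cells (3.46%) and 562 lower (5.15%) by edgeR. The higher genes numbered 195 with DESeq2 and 662 when sums of at least 3 cells were used. *Pdgfrb*, *Htra1*, and *Egfem1* had 0 UMIs in the *Col13a1* cells and were at least 51.5-, 46.3-, and 40.9-fold higher in the gated cells, and *Tgfbi* and *Nes* had 1 and 2 UMIs there. *Ablim3*, *Shisa2*, *Wnt2*, *Vipr2*, *Cd55*, and *Adrb3* had 0 UMIs in the gated cells and were at least 225-, 107-, 104-, 77.2-, 73.9-, and 60.4-fold lower.

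The gated cells were then split by *Stc1*, into 159 cells with at least 1 *Stc1* UMI (43, 52, and 64 per mouse) and 40 without (14, 10, and 16), with medians of 11477 and 10102 UMIs per cell. Of 5551 genes tested, 0 were higher in the cells with *Stc1* and 5 were lower (0.0901%) by edgeR, and 378 (6.81%) had an unadjusted p under 0.05 in either direction. DESeq2 called 0 higher and 5 lower. With the mouse as a block, 21 were lower and 0 higher. Higher genes were called without mouse 2 (5 genes, 45.5% of the calls). Without a filter on low counts, 6 were higher and 19 lower. *Igf1* stood at 122, 173, and 154 CPM in the cells with *Stc1* against 490, 301, and 334 CPM in those without (-1.38, SE 0.19, adjusted p = 0.000982 by edgeR), and the groups did not overlap. *Aspn*, which the gate held at 2 UMIs or fewer per cell, stood at 25.6, 15.8, and 20 CPM (37 UMIs) in the cells with *Stc1* and at 43.4, 54.7, and 46.8 CPM (20 UMIs) in those without, and *Igf1* was high in the *Aspn*-high cells above (460, 536, and 452 CPM); the part of this in the result was not tested. *Adam33*, a membrane metalloprotease, stood at 49.1, 99.9, and 72.5 CPM against 174, 173, and 274 CPM (-1.52, SE 0.25, adjusted p = 0.00715 by edgeR). *Postn*, which encodes periostin, *Serpine2*, which encodes a protease inhibitor, and *Adamts2*, a procollagen protease, were the other 3, with log2 fold changes of -1.06, -0.80, and -0.72. *Igf1* was the single call that remained without mouse 4, and *Serpine2* (adjusted p = 0.0594 by edgeR) and *Adamts2* (0.3) also lost theirs without mouse 2. *Adamts2* lost its call as well with the stricter cell filter (adjusted p = 0.0817 by edgeR), without TMM (0.0694), and with dividing cells left out (0.0714). At matched depth it differed by -0.79, but only mouse 4 gave a sum of 10 cells without *Stc1* there, so that arm was 1 sample.

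Dividing cells, taken as those with at least 2 UMIs of *Mki67* and *Top2a* together, were 2, 7, and 3 of the gated cells of mice 2, 3, and 4 (3.51%, 11.3%, and 3.75%). Among the other cells they were 4.48%, 5.25%, and 6.57%, and among the *Aspn*-high cells 10.3%, 1.14%, and 4.88%. The gated cells therefore overlapped both in this share. At the level of summed RNA, *Mki67*, which marks cycling cells, stood at 103, 215, and 113 CPM against 21.9, 52.8, and 37.1 CPM in the others (1.88, SE 0.31, adjusted p = 0.000837 by edgeR). *Top2a*, the mitotic topoisomerase gene, stood at 86.3 ± 25.9 CPM against 22.4 ± 15 CPM (1.88, SE 0.47, adjusted p = 0.0114 by edgeR), and *Ube2c*, a mitotic ubiquitin-conjugating enzyme, at 52.6 ± 15.7 CPM against 9.29 ± 8.64 CPM (2.51, SE 0.51, adjusted p = 0.00354 by edgeR). Much of these levels came from few cells. *Mki67* had UMIs in 46 gated cells, but a single cell held 38.7% of its 318 UMIs and 12 cells held 89.3%. The 188 *Top2a* UMIs lay in 4 cells, 1 of which held 40.4%, and the 124 *Ube2c* UMIs in 6 cells, 1 of which held 53.2%. *Cenpf*, a kinetochore gene that led the comparison with the *Aspn*-high cells (33.3, 77.9, and 103 CPM against 0, 0.923, and 7.34 CPM, 4.56), had its 172 UMIs in 6 cells, 1 of which held 56.4%. With dividing cells left out, *Mki67* differed by 1.13 (adjusted p = 0.051 by edgeR) and *Ube2c* and *Top2a* could not be tested. Since dividing cells were defined by their own *Mki67* and *Top2a* UMIs, this fit cannot show where the *Mki67* difference came from. Within a matched range of depth *Mki67* differed by 0.21 (adjusted p = 0.727), and *Ube2c* lost its call without mouse 4 (adjusted p = 0.0725).

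**Figure D5:**
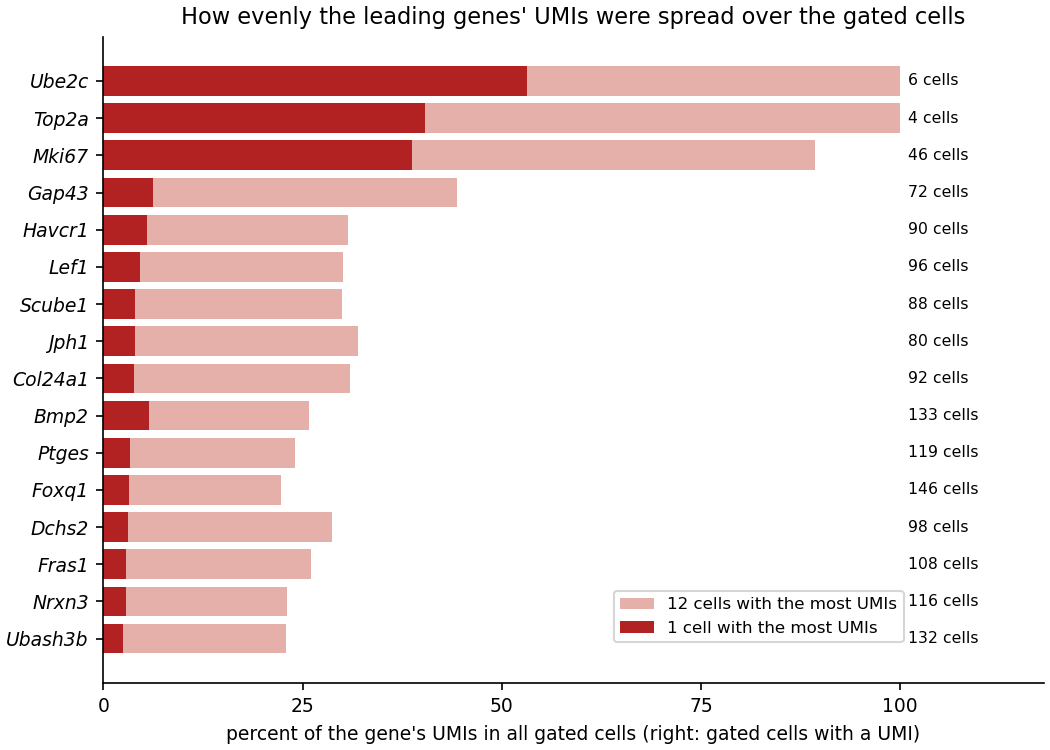
For 16 leading genes, bars give the percent of the gene's UMIs in the 199 gated cells that lay in the cell with the most UMIs (dark) and in the 12 cells with the most (light), with the number of gated cells that had a UMI at the right. *Ube2c* and *Top2a* lie wholly within 12 cells, and *Mki67* lies to 89.3% within 12 cells, while the other 13 genes lie to less than 45% within 12 of the cells.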

How the data were processed

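scRNA-Seq was done on whole lungs of 3 mice with 10x 3′ v3 libraries. The deposited files hold raw UMI counts per gene and cell, 28692 genes, which the authors made with Cell Ranger 3.0.2 on mm10, per the submitters' processing notes, without normalization. The libraries listed 3034, 3135, and 3475 cells with 23744510, 22476491, and 25192427 UMIs. Cells with at least 200 genes and at most 20% UMIs of the 13 mitochondrial genes were kept (7642 of 9644), where the study states 5677 cells and its filter is not given in the sources used here. Positions are from GENCODE M21 on GRCm38. Intervals are Clopper-Pearson, and intervals and limits from a count of 0 (3 UMIs over the group) cover counting error only.

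UMIs were summed per mouse and class, and sums of at least 10 cells were tested with edgeR 4.0.16 (TMM, filterByExpr, quasi-likelihood test, Benjamini-Hochberg adjustment over all genes tested, 0.05) in R 4.3.3, without the 10 gate genes. The 5 classes of the last 3 comparisons with outside cells (gated, *Aspn*-high, *Pdgfra* low in *Agt* and *Stc1*, *Col13a1*, and *Myh11*-high) shared 1 fit, from which the gene *Col13a1* was also left out. The comparisons share the gated sums. A log2 fold change was that of the fit. Its SE was derived from the test, as the absolute log2 fold change divided by the square root of the F statistic. Where a class had 0 UMIs, a bound against 3 UMIs was given. Genes were named as the largest changes with at least 50 CPM in the higher group and the same direction in all 3 mice, 15 higher and 10 lower against the others and 6 each way elsewhere, or as examples of a list; some results are not reported here. Alternatives included cells of matched depth (within percentiles 10 to 90 of the UMIs of the gated cells of each mouse), a stricter cell filter (at least 500 genes, at most 10% mitochondrial UMIs), and a stricter gate (at least 3 *Pdgfra* UMIs and 5 of *Agt* and *Stc1*). List genes named in the text were run under each alternative as well. The members and gene lists were chosen with earlier results of these data known. Tested on simulated data with a log2 change of 2, the fit recovered 96.4% of changed genes against the others, 95.3% against *Aspn*-high cells, and 99.4% in the *Stc1* split. The simulated classes shared 1 profile and 1 spread for all genes, and smaller changes were not simulated. These rates therefore do not carry over to the calls made here. Doublets were marked with Scrublet in scanpy 1.11.5; its own threshold marked under 0.5% of cells, so the highest scores were marked by expected rate and were removed only as an alternative. Replicate sums differed by more than counting noise (chi-square per degree of freedom 1.46 to 1.87 in the gated cells). The classes of a mouse come from the same animal, and blocking on the mouse was tried as an alternative; deviations of the gated and other sums of a mouse correlated at 0.117, 0.0216, and 0.111 over 10553 genes.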

Additional observations from a re-analysis of the deposited data

How the results depend on the processing

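Of the 55 genes named by size, which gave 66 values in the 5 comparisons, none changed sign under an alternative that could test it: of 873 such values 855 kept their side of the threshold and 18 lost it. Of 2029 values for 101 genes named from lists, 1939 kept it, 50 lost it, 22 gained it, and 18 changed sign. The genes named by size had been chosen for large called changes in these data, so their kept signs were likely beforehand. Against the others, sign changed for *Mylk* with the stricter cell filter (-0.00), at matched depth (-0.04), with marked doublets removed (-0.05), with other cells of *Pdgfra* and *Agt* or *Stc1* left out (-0.14), and with other cells limited to 0 *Ptprc*, *Cdh5*, and *Epcam* UMIs (-0.08). At matched depth it changed for *Wnt5a* (-0.01), *Mustn1* (-0.10), *Fgf18* (-0.02), and *Col4a1* (-0.01), and with other cells of *Pdgfra* and *Agt* or *Stc1* left out for *Loxl2* (0.02), *Pappa2* (0.49), *Eln* (0.05), *Col3a1* (0.05), and *Col4a1* (-0.02). Leaving out each mouse in turn gave -0.02 to 0.06 for *Mylk*, -0.03 to 0.29 for *Mustn1*, -0.32 to 0.01 for *Eln*, and -0.02 to 0.08 for *Col4a1*. Of these genes, *Wnt5a* alone had been called. Further, 115 counts and shares moved by less than 1.5 times or 1 SD while 23 moved by more. Restriction to cells of matched depth, which left fewer genes to test against the others (10180) and between classes (9170), gave 501 higher and 1083 lower genes against the others, 228 and 468 against the *Aspn*-high cells, and 623 and 1028 against the *Pdgfra* cells low in *Agt* and *Stc1*. In the *Stc1* split it gave 5 and 23, but only mouse 4 kept a sum of 10 cells without *Stc1*, so that arm was 1 sample, assumed to vary like the other group, with 7726 genes tested in place of 5551. DESeq2 called 269 higher genes against the *Aspn*-high cells and 195 against the *Col13a1* cells. Without TMM, 1956 genes were higher against the *Pdgfra* cells low in *Agt* and *Stc1*. Without a filter on low counts, the *Stc1* split gave 6 higher and 19 lower genes. Leaving out each mouse in turn gave 481–566 higher genes against the others, 295–330 against the *Aspn*-high cells, and 0–5 higher and 1–9 lower in the *Stc1* split, with fewer samples in each fit. Where a cause is not named, the cause was not tested.

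With the mouse as a block, pairing the classes of an animal, the *Stc1* split gave 21 lower genes in place of 5, and the block moved no other count by over 1.5 times and changed no call of a named gene but those of *Pdgfrb*, *Loxl2*, and *Pappa2* given above. Alternatives added after seeing the data were other cells with *Pdgfra* and *Agt* or *Stc1* left out, with the values given here and above; sums of at least 3 cells, which gave 662 higher genes against the *Col13a1* cells; a gate without the *Myh11* limit, with a share of 17.6%; and dividing cells left out, with 777 higher and 1731 lower genes against the others, 380 and 903 against the *Aspn*-high cells, and 1392 and 1528 against the *Pdgfra* cells low in *Agt* and *Stc1*. In the *Stc1* split, *Adam33*, *Postn*, *Serpine2*, and *Adamts2* lost their calls without mouse 4 (adjusted p = 0.655, 0.682, 0.655, and 0.655, edgeR), and *Top2a* lost its call against the *Aspn*-high cells with DESeq2 (adjusted p = 0.668) and without mouse 2 or 3 (adjusted p = 0.0815 and 0.115, edgeR). The *Col13a1* comparison gave no value at matched depth or without mouse 4. With 199 gated cells, genes under the limit of 1.33 CPM could not be told from absent.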

Other observations

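Axon guidance genes went both ways. *Plxna2*, a semaphorin receptor, stood at 248, 260, and 235 CPM in the gated cells of mice 2, 3, and 4 and at 56.8, 80, and 66.5 CPM in the other cells with type I collagen transcripts (log2 fold change 1.81, SE 0.12, adjusted p = 9.24e-07 by edgeR). The Slit receptor genes *Robo1* (1.48) and *Robo2* (1.14) were higher, while *Slit3* had 3 UMIs in the gated cells against 87.8 ± 8.05 CPM in the others and *Slit2* stood at 36.5 ± 17.3 CPM against 165 ± 44.3 CPM (-2.15). The ligand genes *Ntn4* and *Sema6d* were higher as well, and the receptor genes *Nrp2*, *Plxnd1*, and *Unc5c* lower. The list as a whole had 7 higher and 17 lower of 30 tested (median -0.90), where 7.08% of all genes were higher and 16.2% lower. Against the *Aspn*-high cells *Plxna2* (1.45), *Robo1* (0.84), and *Robo2* (0.57) were also higher and *Slit2* (-1.56) also lower. At matched depth the calls for *Ntn4* against the other cells (adjusted p = 0.0739 by edgeR) and for *Robo1* against the *Aspn*-high cells (0.0501) were lost.

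Most further lists held more lower than higher genes against the other cells, as did all genes tested (7.08% higher and 16.2% lower). The other cells had no limit on *Myh11*, *Ptprc*, *Cdh5*, or *Epcam*, and the part of this in the counts was not tested. Of 32 tested BMP and TGF-β genes, 5 were higher, including *Bmp2* and *Bmp5*, and 16 lower. Of 16 FGF genes, 2 were higher (*Spry1* and *Fgf7*) and 5 lower, including *Fgf10* (6.96 ± 3.53 CPM against 19.5 ± 1.76 CPM, -1.52). Of 13 retinoic acid genes, 1 was higher (*Rdh10*) and 7 lower, including *Aldh1a1* (9.41 ± 2.72 CPM against 50.4 ± 22.4 CPM, -2.42). Of 11 Notch genes, *Hes1* was higher (166 ± 7.22 CPM against 103 ± 10 CPM, 0.63) and 8 were lower, including the ligand gene *Jag1* (-3.47). The hypoxia list had 2 higher and 8 lower of 16, with *Epas1*, the gene of HIF-2α, at 43 ± 8.61 CPM against 279 ± 46.8 CPM (-2.77), and *Vegfa* was not called (122 ± 6 CPM against 94.8 ± 19.2 CPM, adjusted p = 0.176 by edgeR). Of 11 VEGF and angiopoietin genes, 1 was higher (*Angptl4*) and 5 lower, including *Cxcl12* (6.43 ± 4.56 CPM against 110 ± 29.7 CPM, -4.01). Of 25 matrix protease genes, *Htra1* and *Adamts10* (1083 ± 73 CPM against 581 ± 75.2 CPM, 0.84) were higher and 13 lower. Of 14 integrin genes, *Itgav* (0.88) and *Itga9* (0.63) were higher and 8 lower, including *Itga8* (7.38 ± 10.1 CPM against 369 ± 49.3 CPM, -5.44). Of 10 nucleotide receptor genes, *P2ry14* left out, 2 were higher and 5 lower. All 5 tested cartilage genes and the 1 tested mesothelial gene, *Upk1b*, were lower. The cell cycle list was the exception, with 5 higher and 1 lower of 15. The calls for *Fgf7* were lost without mouse 2 (adjusted p = 0.0508 by edgeR) or mouse 3 (0.123) and at matched depth (0.0657), and those for *Rdh10* (0.112) and *Angptl4* (0.326) without mouse 4. Against the *Aspn*-high cells, 2 of 9 tested Notch genes were higher and 2 lower, *Jag1* among the lower. There 3 of 14 hypoxia genes, *Vegfa* among them, were higher and 3 lower, and *Epas1* was not called. Of 9 VEGF and angiopoietin genes, 2 were higher there and 1 lower. Against the *Pdgfra* cells low in *Agt* and *Stc1*, the higher and lower counts of these 3 lists were 1 and 0, 3 and 8, and 2 and 6.

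The 67 cells that met every limit of the gate but that on *Myh11* held *Agt* at 978 ± 208 CPM, *Stc1* at 389 ± 68.9 CPM, and *Pdgfra* at 1353 ± 348 CPM. Their *Tgfbi* level was 2626 ± 127 CPM, *Gap43* 120 ± 5.7 CPM, and *Lox* 39.8 ± 16.9 CPM, against 2577 ± 93.7, 99.9 ± 10.1, and 27.1 ± 4.79 CPM in the gated cells. *Acta2* stood at 1934, 1415, and 1435 CPM and *Tagln* at 1311 ± 198 CPM, against 762 ± 122 and 656 ± 40.4 CPM in the gated cells. In the 436 cells with at least 5 *Myh11* UMIs and 0 *Ptprc*, *Cdh5*, and *Epcam* UMIs, the levels were 7486 and 3719 CPM. Those 436 cells include the 67. No test was run on the 67 cells, which numbered 22, 17, and 28 in mice 2, 3, and 4 and were deeper than the gated cells (median 13235 UMIs). Of them 9 (13.4%) were dividing by the rule above. A single further cell of mouse 2 passed the gate but not the filter on cells.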
